A study of Bos taurus with 10 samples.

Results

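The genes described here encode chemokines and chemokine receptors, measured in the bovine corpus luteum (Bos taurus) on single-colour whole-transcript arrays. They were chosen by name: a probeset entered when its platform annotation gave exactly 1 gene symbol, and that symbol was CCL, CXCL, CCR, CXCR or ACKR with a number, or CX3CL1, CX3CR1, XCL1, XCL2 or XCR1. This gave 52 genes, 32 ligands and 20 receptors, among 19145 probesets with at least 1 symbol. Each gene had a single such probeset. The current cattle gene table held 51 of them under the annotated Entrez identifier, and it held CX3CL1 under its symbol. CCL8 and CXCR1 were left out because their probesets list more than 1 gene record, and GRO1 because it shares its probesets with CXCL2. CCL27 was not analysed here.

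Chemokines are small secreted proteins that direct the movement of leukocytes along a gradient. They are named for the spacing of their first cysteines (CC, CXC, CX3C and XC), and they act through receptors of the G protein-coupled family. Atypical receptors (ACKR) bind chemokines without G protein signalling and mostly remove or relocate them. In the corpus luteum, chemokines are known for bringing monocytes, T cells and granulocytes into the gland when it forms after ovulation and again when it regresses.

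Corpora lutea were taken on cycle day 7, in the early luteal phase, and cut into pieces and frozen; the cows had received different forms of selenium. The labels name the agent only as MIX (5 samples) or ISe (5 samples). They do not state that every sample came from a separate cow, and p-values here therefore cover only the spread between samples, which may be technical. All values are log2 signal as the authors deposited it, and 1 unit is a doubling. The array medians lay between 5.99 and 6.04, the correlation between any pair of arrays between 0.986 and 0.993, and MIX 8 and MIX 1 stood apart on the first and second principal component. Of 11 markers of luteal steroidogenic cells 8 were measured, and none of these had a mean under the array medians.

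No chemokine or receptor gene differed between MIX and ISe past the adjusted threshold of 0.05 in the limma fit over all 19145 probesets, where the smallest adjusted p of the 52 was 0.941. At an unadjusted p under 0.05 there were 3 of 52 genes (5.77%), the receptors CCR8 and CCR1 and the ligand CCL5, all with the higher mean in MIX. Of all tested probesets 4.79% had an unadjusted p under 0.05, with 2.67% higher and 2.12% lower in MIX, and 0% passed the adjusted threshold, so the share among the chemokine genes was near the background. Without moderation of the variances the unadjusted count was 1 and the adjusted count 0. The mean was higher in MIX for 33 of the 52 (63.5%, against 50.4% of all tested probesets). The median log2 difference, MIX minus ISe, was 0.05 over the 52 genes and 0.001 over all tested probesets. In no gene were the groups free of overlap, which 0.642% of all tested probesets were.

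**Figure D1:**
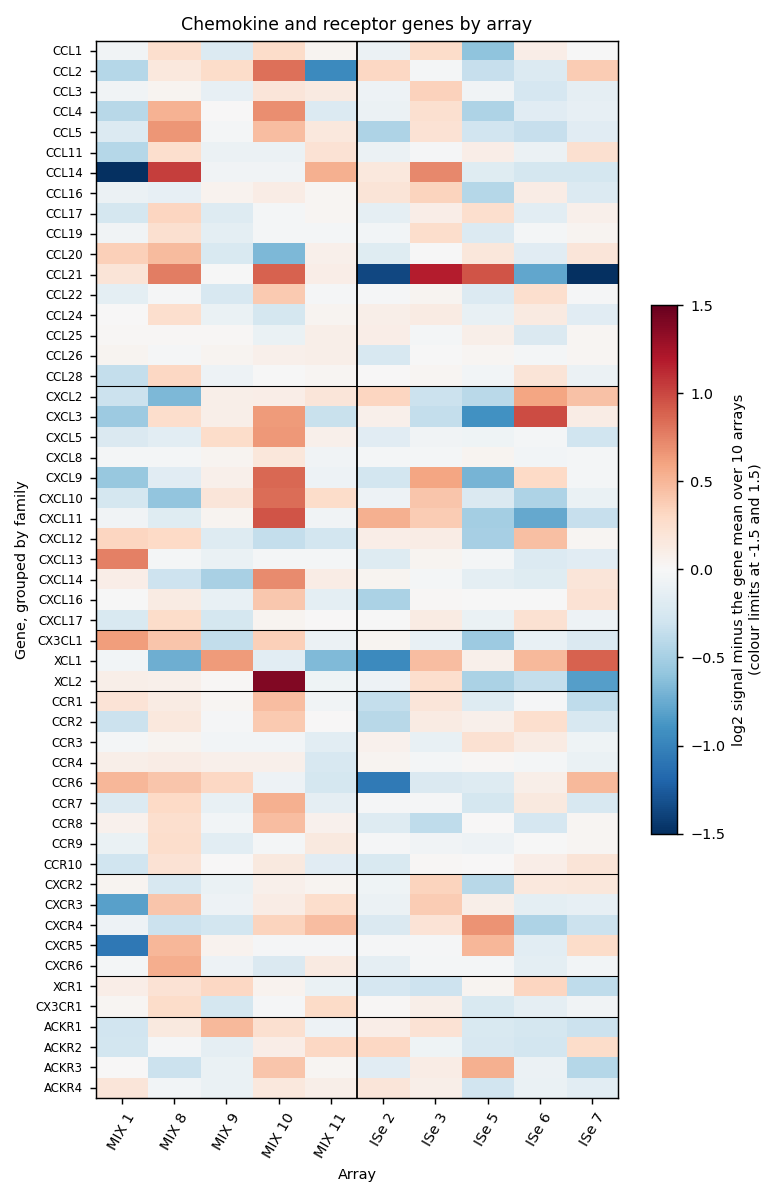
Log2 signal of the 52 chemokine and receptor genes on the 10 arrays, as the difference from each gene's mean (colour; rows are genes grouped by family, columns are arrays, the vertical line parts MIX from ISe). Among the strongest colours are those of CCL21 in ISe 7, ISe 2 and ISe 3, CCL14 in MIX 1 and XCL2 in MIX 10.

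By family, 9 of 12 CXC ligands, 8 of 17 CC ligands, 7 of 9 CC receptors, 2 of 5 CXC receptors and 3 of 4 atypical receptors had a higher mean in MIX. The median log2 difference was 0.05 for CXC ligands, -0.003 for CC ligands, 0.08 for CC receptors, -0.04 for CXC receptors and 0.06 for atypical receptors. Many of the genes gave low signal: 25 of the 52 lay under the array median on all 10 arrays, 15 lay above it on all 10, and 12 were above it on some. Among the 25 were CCR2, CCR8, CXCR2, CCL4, CCL19, CXCL8, CXCL13, CXCL14, CX3CL1, ACKR1, ACKR2 and ACKR4. The 95% interval of the fold change lay within 1.5-fold in either direction for 37 of the 52 genes, and it reached beyond 2-fold in 3, which were CCL21, XCL1 and XCL2. The spread between arrays was wide, with a median SD over the 10 arrays of 0.26 log2 for the 52 genes and 0.15 for all tested probesets.

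**Figure D2:**
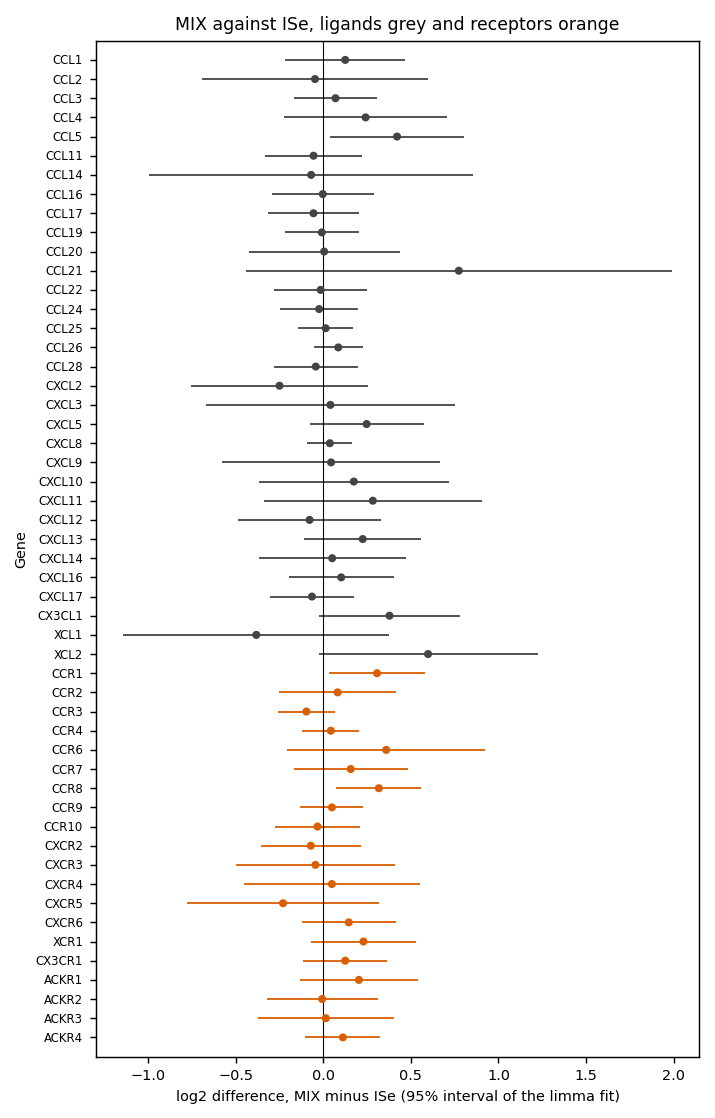
Log2 difference between MIX and ISe for each of the 52 genes (points), with the 95% interval of the limma fit (lines), ligands in grey and receptors in orange. The intervals of CCL5, CCR1 and CCR8 lie above 0, none of these passes the adjusted threshold, and the widest interval is that of CCL21.

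Values by array are given below in the order MIX 1, 8, 9, 10 and 11, then ISe 2, 3, 5, 6 and 7. CCL5, a ligand that attracts T cells and monocytes and is made in quantity by cytotoxic lymphocytes, measured 6.52, 7.39, 6.70, 7.19 and 6.89 in MIX and 6.26, 6.94, 6.44, 6.38 and 6.56 in ISe. MIX 8 and MIX 10 were the only arrays above ISe 3, and the other MIX arrays lay within the range of ISe. The MIX mean of 6.94 ± 0.35 and the ISe mean of 6.52 ± 0.26 (SD, n = 5 arrays) gave a fold change of 1.34 (95% interval 1.03 to 1.74). Limma gave CCL5 an unadjusted p of 0.0328 and an adjusted p of 0.941, and an exact two-sided permutation test gave 0.0714, where 5 against 5 arrays can go no lower than 0.00794. Its log2 difference of 0.42 was 0.31 without MIX 8 and 0.53 without ISe 3.

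CCR1, a receptor for CCL5 and CCL3 on monocytes and macrophages, measured 6.29, 6.21, 6.12, 6.55 and 6.04 in MIX and 5.73, 6.27, 5.89, 6.07 and 5.71 in ISe. The 3 lowest ISe arrays lay under every MIX array, and ISe 3 lay above 3 of the MIX arrays. The MIX mean of 6.24 ± 0.20 and the ISe mean of 5.94 ± 0.24 (SD, n = 5 arrays) gave a log2 difference of 0.31 ± 0.13 (SE), with adjusted p = 0.941 by limma and p = 0.0714 by the exact permutation test. CCR8, a receptor of skin-homing and regulatory T cells in human and mouse, measured 5.06, 5.25, 4.96, 5.47 and 5.07 in MIX and 4.81, 4.62, 5.01, 4.75 and 5.03 in ISe. Only MIX 9 fell among the ISe values, and 4 MIX arrays lay above all of them. The log2 difference was 0.32 ± 0.11 (SE), with an unadjusted p of 0.0151 and an adjusted p of 0.941 by limma and p = 0.0397 by the exact permutation test. In that test 1 of the 52 genes was under 0.05, and the share of all tested probesets was not computed for it. All 10 values of CCR8 lay under the array median. CCR8 kept an unadjusted p under 0.05 with each array left out in turn, between 0.00879 and 0.0402, whereas that p reached 0.0813 for CCL5, without MIX 8, and 0.0812 for CCR1, without MIX 10. These genes were picked by their p on the same arrays, so the fits are no independent support.

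**Figure D3:**
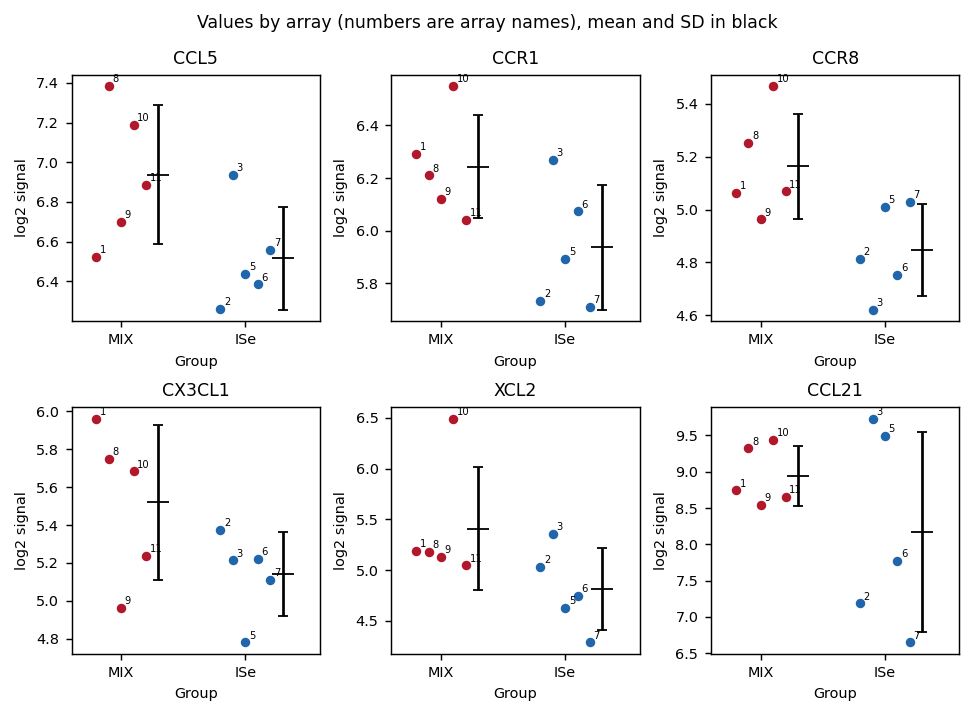
Log2 signal by array in the MIX and ISe groups for CCL5, CCR1, CCR8, CX3CL1, XCL2 and CCL21 (points labelled with the array number), with the group mean and SD (black). The groups overlap in every panel, XCL2 in MIX 10 lies at 6.49 far above the other MIX arrays, and CCL21 ranges from 6.65 to 9.73 within ISe.

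Markers of the leukocytes known to carry these genes had mostly higher means in MIX on the same arrays. All 17 macrophage and monocyte markers that were measured had their higher mean in MIX, 15 with an unadjusted p under 0.05 and 0 with an adjusted one. Of all tested probesets 2.67% had an unadjusted p under 0.05 with the higher mean in MIX. The lists were chosen with earlier results of these data known, and the markers of a list share the same arrays. Their counts are therefore no independent support. The mean deviation of the macrophage and monocyte list ran from 0.14 to 0.32 log2 in MIX and from -0.41 to 0.02 in ISe. Only 1 of the 17 had a mean under the array medians. FCGR1A, an immunoglobulin G receptor, was at 0.57 ± 0.10, CD68, a lysosomal protein of phagocytes, at 0.52 ± 0.11, and CD14, a co-receptor for lipopolysaccharide, at 0.50 ± 0.11 (log2 difference ± SE). Among the 20 T and NK cell markers the MIX mean was the higher in 17, 3 with an unadjusted p under 0.05 and 0 with an adjusted one, and the list ran from -0.14 to 0.34 in MIX and from -0.19 to 0.07 in ISe, with 15 of the 20 under the array medians. An array has no true 0, so the absence of a cell type cannot be read from these values. In whole tissue, more cells of a type and more RNA per cell cannot be told apart.

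To see which genes moved with these markers, 16 relations between a gene and the mean of a marker list were computed across the 10 arrays, chosen after the values were seen. Adjustment over the 16 does not cover that choice. The share of all tested probesets with such correlations was not computed. CCL5 followed the T and NK cell markers closely, with Pearson r = 0.95 (permutation p = 6.00e-05, adjusted over the 16 relations 9.60e-04) and Spearman rho = 0.90 (permutation p = 7.10e-04, adjusted 0.0114). The relation was r = 0.93 with the group means removed and r = 0.93 without MIX 8 and MIX 10, the arrays farthest from the median of the list. CCR1 followed the macrophage and monocyte markers with r = 0.88 and rho = 0.85 (permutation p = 5.40e-04 and 0.00286, adjusted 0.00432 and 0.0229), r = 0.90 with the group means removed and 0.74 without ISe 2 and ISe 7, where the adjusted exact p was 0.187. The part that cell numbers play in the differences of CCL5 and CCR1 was not tested beyond these relations. XCL2 with T and NK markers, XCR1 with dendritic cell markers and ACKR3 with endothelial markers had r of 0.76, 0.74 and 0.74 (permutation p = 0.00443, 0.0154 and 0.0149, adjusted 0.0236, 0.0492 and 0.0492) and rho of 0.73, 0.73 and 0.64 (permutation p = 0.0198, 0.0205 and 0.0554, adjusted 0.0656, 0.0656 and 0.121). Without the 2 arrays farthest from the median of the list r was 0.58, 0.56 and 0.45. Leaving out such arrays narrows the range of the list, which can lower r by itself. How far these 3 relations rested on those arrays can therefore not be told. Without MIX 1 and MIX 8, which stood apart over all probesets, r was 0.92, 0.84 and 0.84 (adjusted exact permutation p = 0.0250, 0.0294 and 0.0294). With the group means removed ACKR3 had r = 0.88 (adjusted permutation p = 0.00939), and XCL2 and XCR1 had 0.65 and 0.66 (both adjusted 0.0929). CXCR3 followed the T and NK markers by rank, with rho = 0.79 and r = 0.59 (permutation p = 0.00903 and 0.0823, adjusted 0.0482 and 0.146), and r = 0.78 with the group means removed (adjusted permutation p = 0.0226) and 0.61 without MIX 8 and MIX 10. CCL5, CCR1 and CXCR3 were the 3 relations with an adjusted p under 0.05 by rho. CCR8 had r = 0.64 and rho = 0.49 with T and NK markers (permutation p = 0.0464 and 0.156, adjusted 0.124 and 0.249), and r = -0.21 without MIX 8 and MIX 10. CX3CR1 and CCL2 had r of 0.43 and -0.03 with the macrophage markers (permutation p = 0.220 and 0.934, adjusted 0.320 and 0.994) and rho of 0.42 and -0.10 (permutation p = 0.234 and 0.784, adjusted 0.341 and 0.784).

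**Figure D4:**
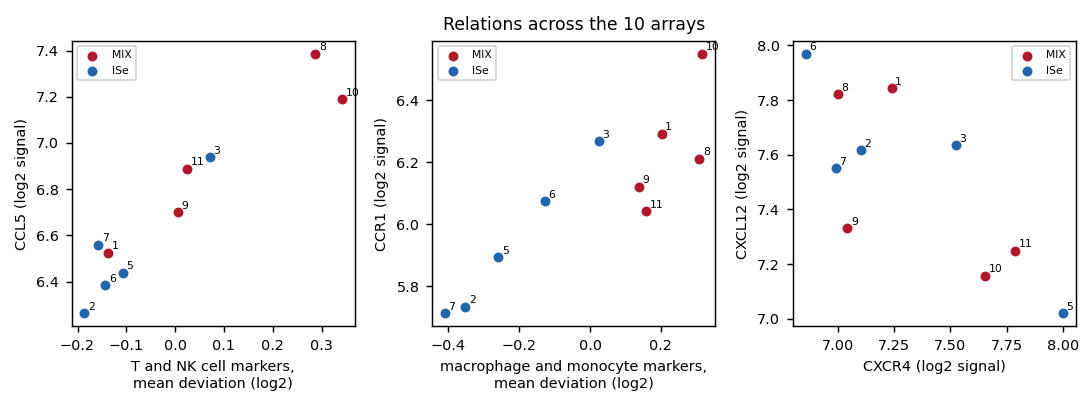
CCL5 against the mean deviation of 20 T and NK cell markers, CCR1 against that of 17 macrophage and monocyte markers, and CXCL12 against its receptor CXCR4, all in log2 units over the 10 arrays (MIX red, ISe blue, labelled with the array number). CCL5 and CCR1 lie along rising lines (r = 0.95 and 0.88), and CXCL12 is low where CXCR4 is high (r = -0.78).

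The other inflammatory CC ligands did not differ past the threshold. CCL2, the main attractant of monocytes through CCR2, measured 7.04, 7.63, 7.74, 8.30 and 6.51 in MIX and 7.78, 7.44, 7.12, 7.27 and 7.85 in ISe. MIX held both its highest and its lowest value, so the group means of 7.44 ± 0.69 and 7.49 ± 0.31 (SD, n = 5 each) differed by less than the spread between arrays. CCR2, its receptor, measured 4.84, 5.32, 5.15, 5.56 and 5.17 in MIX and 4.76, 5.29, 5.24, 5.41 and 4.93 in ISe, a log2 difference of 0.08 ± 0.15 (SE). CCL4, made by activated T cells, NK cells and macrophages, measured 4.004, 4.95, 4.43, 5.12 and 4.22 in MIX and 4.34, 4.67, 3.96, 4.25 and 4.30 in ISe. MIX 8 and MIX 10 lay above all ISe arrays and the rest overlapped, for a log2 difference of 0.24 ± 0.21 (SE) that was 0.10 without MIX 10. Both CCR2 and CCL4 lay under the array median on every array. CCL3, a relative of CCL4 that acts through CCR1, measured 5.94, 6.02, 5.86, 6.17 and 6.11 in MIX and 5.91, 6.33, 5.94, 5.73 and 5.85 in ISe, with its highest and lowest value both in ISe and a difference of 0.07 ± 0.11. CCL16, a ligand of CCR1 known from human liver, had means of 6.86 ± 0.10 and 6.86 ± 0.31 (SD, n = 5 arrays of MIX and of ISe), and its fold change of 0.998 had a 95% interval of 0.816 to 1.22. It measured 6.77, 6.73, 6.91, 6.97 and 6.89 in MIX and 7.05, 7.19, 6.43, 6.97 and 6.65 in ISe, so the ISe arrays lay on both sides of the MIX arrays.

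CCL14, a ligand of CCR1 that is found at high levels in human plasma, varied more between arrays than any other of the 52 genes except CCL21. It measured 5.26, 7.93, 6.84, 6.84 and 7.43 in MIX and 7.05, 7.62, 6.71, 6.63 and 6.64 in ISe. MIX held the lowest array, MIX 1, and the highest, MIX 8, which are also the arrays that stood apart over all probesets. The log2 difference of -0.07 ± 0.42 (SE) became 0.33 without MIX 1 and -0.34 without MIX 8, so its sign rested on single arrays.

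CCL19 and CCL21 guide CCR7-bearing dendritic cells and naive T cells into lymphatic vessels and lymph nodes, and CCL21 is made by lymphatic endothelium. CCL21 measured 8.75, 9.32, 8.54, 9.44 and 8.65 in MIX and 7.19, 9.73, 9.49, 7.77 and 6.65 in ISe. The MIX arrays lay close together, within 1.86-fold of each other, whereas the ISe arrays ranged over 8.47-fold, with ISe 3 and ISe 5 above every MIX array and ISe 2, 6 and 7 below every one. MIX averaged 8.94 ± 0.41 and ISe 8.17 ± 1.38 (SD, n = 5 arrays). Limma gave a fold change of 1.71 (95% interval 0.736 to 3.97) and an adjusted p of 0.941, and the exact permutation test p = 0.262. The log2 difference of 0.77 was 0.39 without ISe 7 and 1.16 without ISe 3. CCL19 had a narrower range, with 5.43, 5.72, 5.33, 5.45 and 5.45 in MIX and 5.44, 5.74, 5.27, 5.45 and 5.52 in ISe, and its log2 difference was -0.01 ± 0.10 (SE). CCR7 measured 5.30, 5.81, 5.40, 6.04 and 5.36 in MIX and 5.49, 5.49, 5.24, 5.65 and 5.26 in ISe. MIX 8 and MIX 10 lay above all ISe arrays, and the difference of 0.16 ± 0.15 was 0.04 without MIX 10.

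Of the other lymphatic endothelial markers, 4 were measured, 2 higher and 2 lower in MIX, with 0 at an unadjusted p under 0.05. PROX1, the transcription factor that sets lymphatic identity, had its lowest values in ISe 7 (4.26) and ISe 6 (4.99). CCL21 was at 6.65 and 7.77 on these arrays, but PROX1 measured 5.71 in ISe 2, where CCL21 was 7.19. FLT4 had its lowest ISe values in ISe 6 (6.43) and ISe 7 (6.70), and LYVE1 in ISe 7 (9.80). PDPN went otherwise, at 10.11 in ISe 7 and 9.78 in ISe 6, with its lowest ISe value of 9.52 in ISe 2. Across the 10 arrays CCL21 and the mean of the 4 markers had r = 0.61 and rho = 0.66 (permutation p = 0.0623 and 0.0416, adjusted over the 16 relations 0.125 and 0.111). The list mean ran from -0.29 to 0.20 in MIX and from -0.32 to 0.27 in ISe. The groups did not run alike: in ISe, arrays 3 and 5 were highest and array 7 lowest in both measures, whereas in MIX the array with the highest CCL21, MIX 10, had the lowest list mean. That low mean rested mainly on PDPN, at 8.75 in MIX 10 and between 9.46 and 10.59 in the other MIX arrays. PROX1, LYVE1 and FLT4 were at 5.54, 9.66 and 7.03 in MIX 10. Whether the amount of lymphatic vessel in the pieces of tissue sets the range of CCL21 was not tested.

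CXCL9, CXCL10 and CXCL11, which interferon gamma induces and which attract activated T and NK cells through CXCR3, had small positive differences of 0.04 ± 0.28, 0.17 ± 0.25 and 0.28 ± 0.28 log2 (SE). CXCL10 measured 7.32, 6.99, 7.77, 8.42 and 7.85 in MIX and 7.51, 8.00, 7.36, 7.11 and 7.48 in ISe. CXCL9 measured 6.77, 7.17, 7.42, 8.21 and 7.26 in MIX and 7.07, 7.94, 6.65, 7.64 and 7.31 in ISe. CXCL11 measured 7.34, 7.21, 7.44, 8.34 and 7.34 in MIX and 7.92, 7.78, 6.88, 6.62 and 7.05 in ISe. MIX 10 held the highest value of all 3 ligands, and without it the log2 differences were -0.17 for CXCL9, -0.01 for CXCL10 and 0.08 for CXCL11. CXCR3 measured 4.88, 6.12, 5.62, 5.80 and 5.95 in MIX and 5.60, 6.07, 5.79, 5.55 and 5.57 in ISe, so both its extremes, MIX 8 and MIX 1, were in MIX. MIX averaged 5.67 ± 0.48 and ISe 5.72 ± 0.22 (SD, n = 5 arrays). IFNG itself averaged 2.84 in MIX and 2.69 in ISe, far under the array medians, with a log2 difference of 0.15 ± 0.08 (SE).

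CXCL12 holds leukocytes and blood progenitors in tissues through CXCR4, and ACKR3 scavenges it. CXCL12 measured 7.84, 7.82, 7.33, 7.16 and 7.25 in MIX and 7.62, 7.63, 7.02, 7.97 and 7.55 in ISe, with a log2 difference of -0.08 ± 0.19 (SE). CXCR4 measured 7.24, 7.00, 7.04, 7.65 and 7.79 in MIX and 7.10, 7.52, 8.00, 6.86 and 6.99 in ISe, with a difference of 0.05 ± 0.23. ACKR3 measured 7.38, 7.05, 7.28, 7.79 and 7.41 in MIX and 7.20, 7.49, 7.91, 7.29 and 6.95 in ISe, with a difference of 0.01 ± 0.18. The 3 genes varied more between the arrays of each group than between the group means. ISe 5 held the lowest CXCL12 together with the highest CXCR4 and ACKR3.

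**Figure D5:**
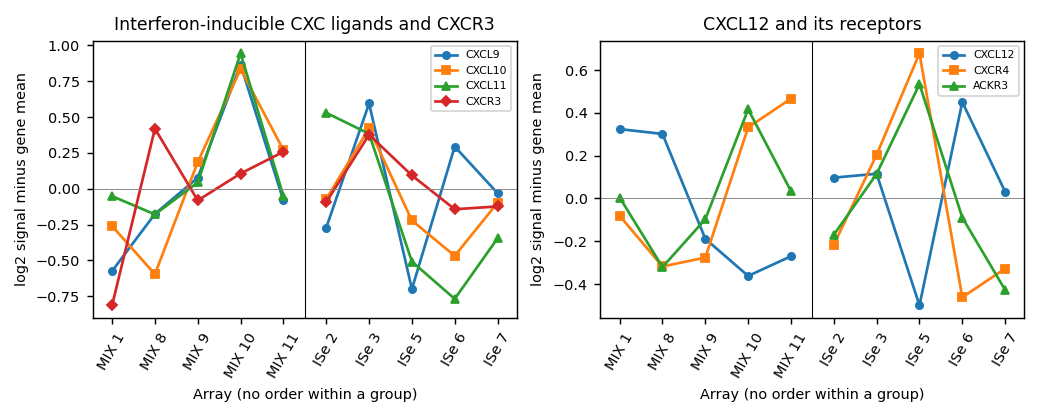
Log2 signal minus the gene mean by array for CXCL9, CXCL10, CXCL11 and their receptor CXCR3 (left) and for CXCL12, CXCR4 and ACKR3 (right); arrays within a group have no order. MIX 10 holds the highest value of the 3 interferon-inducible ligands, and in ISe 5 CXCL12 is lowest where CXCR4 and ACKR3 are highest.

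Ligands and their receptors were set against each other across the 10 arrays for 26 of 30 listed pairs, those with both genes measured. By permutation with Benjamini-Hochberg adjustment 0 of the 26 pairs had an adjusted p under 0.05 and 3 an unadjusted one, and r was above 0 in 18. The same shares among unmatched ligands and receptors were not computed. CXCL12 and CXCR4 ran in opposite directions, with r = -0.78 and rho = -0.68 (permutation p = 0.0106 and 0.0340, adjusted 0.276 and 0.433). The value was r = -0.78 with the group means removed and -0.56 without MIX 11 and ISe 5. CXCL12 and ACKR3 had r = -0.65 and rho = -0.47 (permutation p = 0.0397 and 0.176, adjusted 0.344 and 0.572), and r = -0.13 without MIX 10 and ISe 5. These arrays were farthest from the median of ACKR3, and the narrower range without them can weaken r by itself. CCL5 and CCR1 had r = 0.67 and rho = 0.58 (permutation p = 0.0374 and 0.0901, adjusted 0.344 and 0.469), with r = 0.59 without MIX 10 and ISe 7. Both genes had the higher mean in MIX, and with the group means removed r was 0.46 (permutation p = 0.176, adjusted 0.602). Without MIX 1 and MIX 8 it was 0.83 (adjusted exact permutation p = 0.256).

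CX3CL1, also called fractalkine, is a membrane-bound chemokine of endothelium and epithelium that tethers cells carrying CX3CR1, a receptor of monocytes, macrophages and cytotoxic lymphocytes. CX3CL1 measured 5.96, 5.75, 4.96, 5.68 and 5.24 in MIX and 5.37, 5.21, 4.78, 5.22 and 5.11 in ISe. MIX 1, 8 and 10 lay above all ISe arrays, and MIX 9 lay under all of them except ISe 5. Its fold change was 1.30 (95% interval 0.984 to 1.72, adjusted p = 0.941 by limma), and the log2 difference of 0.38 was 0.15 without MIX 1 and MIX 8. CX3CL1 lay under the array median on every array. The MIX mean was the higher in all 10 endothelial markers, 1 of them at an unadjusted p under 0.05, against 2.67% of all tested probesets. The list ran from -0.05 to 0.23 log2 in MIX and from -0.18 to 0.11 in ISe. Across the arrays CX3CL1 and the mean of these markers had r = 0.36 and rho = 0.30 (permutation p = 0.299 and 0.408, adjusted over the 16 relations 0.398 and 0.544), with r = 0.08 after the group means were removed and 0.63 without MIX 10 and ISe 5. CX3CR1 measured 6.77, 7.01, 6.47, 6.72 and 7.02 in MIX and 6.75, 6.82, 6.51, 6.61 and 6.68 in ISe, a difference of 0.13 ± 0.11 (SE). The pair had r = 0.56 and rho = 0.65 (permutation p = 0.0904 and 0.0482, adjusted over the 26 pairs 0.392 and 0.433).

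XCL1 and XCL2 are C-type chemokines of activated CD8 T and NK cells, and their receptor XCR1 marks cross-presenting dendritic cells. The genes are near-identical copies in human, so that array probes may not part them. Here the probesets differed in level, with means over the 10 arrays of 9.37 for XCL1 and 5.11 for XCL2. What each probeset detects was not tested. XCL2 measured 5.19, 5.18, 5.13, 6.49 and 5.05 in MIX and 5.03, 5.36, 4.63, 4.75 and 4.29 in ISe. MIX 10 alone stood far above the rest, and the log2 difference of 0.60 ± 0.28 (SE, adjusted p = 0.941 by limma) was 0.33 without it. XCL2 lay above the array median only in MIX 10. XCL1 went the other way, with 9.33, 8.63, 10.00, 9.21 and 8.71 in MIX and 8.41, 9.83, 9.45, 9.86 and 10.25 in ISe. Its log2 difference of -0.38 ± 0.34 (SE) was -0.67 without ISe 2, the lowest array, and -0.21 without ISe 7, the highest. XCR1 measured 6.02, 6.14, 6.24, 5.97 and 5.82 in MIX and 5.67, 5.61, 5.96, 6.25 and 5.55 in ISe, a difference of 0.23 ± 0.14 (SE) with ISe 6 just above the highest MIX array. Of 6 other dendritic cell markers 5 had a higher mean in MIX, with LAMP3, of mature dendritic cells, at 0.31 ± 0.10 and FLT3, a growth factor receptor, at 0.25 ± 0.10 (log2 difference ± SE), both with adjusted p = 0.941, and the list ran from -0.11 to 0.22 in MIX and from -0.15 to 0.06 in ISe.

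Ligands that attract neutrophils through CXCR2 showed no difference past the threshold. CXCL5 measured 5.77, 5.83, 6.27, 6.63 and 6.07 in MIX and 5.82, 5.93, 5.93, 5.96 and 5.69 in ISe. MIX 9, 10 and 11 lay above every ISe array and MIX 1 and 8 among them, for a log2 difference of 0.25 ± 0.15 (SE) that was 0.46 without MIX 1 and MIX 8 and 0.12 without MIX 10. CXCL3 measured 5.63, 6.43, 6.26, 6.80 and 5.83 in MIX and 6.25, 5.81, 5.26, 7.14 and 6.28 in ISe, with both its highest and its lowest value in ISe. CXCL8, the best-known neutrophil attractant, measured 5.04, 5.04, 5.11, 5.24 and 5.02 in MIX and 5.04, 5.04, 5.12, 5.03 and 5.04 in ISe, with an identical value on 5 arrays. CXCR2 measured 5.06, 4.78, 4.92, 5.09 and 5.06 in MIX and 4.96, 5.35, 4.60, 5.18 and 5.18 in ISe. It lay under the array median on every array, and its log2 difference was -0.07 ± 0.13 (SE). Of 8 neutrophil and eosinophil markers 4 were higher and 4 lower in MIX, 7 of the 8 lay under the array medians, and the list mean ran from -0.20 to 0.13 in MIX and from -0.06 to 0.09 in ISe.

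Among the remaining ligands, CXCL13, which draws B cells into follicles through CXCR5, measured 4.81, 4.02, 3.94, 4.01 and 4.01 in MIX and 3.85, 4.08, 4.01, 3.84 and 3.88 in ISe. MIX 1 stood above all other arrays, and the log2 difference of 0.23 ± 0.15 (SE) was 0.06 without MIX 1. The 9 B and plasma cell markers measured were 3 higher and 6 lower in MIX, with 0 at an unadjusted p under 0.05, and their list mean ran from -0.26 to 0.09 in MIX and from -0.06 to 0.29 in ISe. CXCL16, a transmembrane ligand of CXCR6 and a scavenger receptor, measured 8.90, 9.02, 8.80, 9.31 and 8.76 in MIX and 8.43, 8.92, 8.90, 8.90 and 9.13 in ISe, with a fold change of 1.07 (95% interval 0.872 to 1.32). CXCL14, made by epithelia and stromal cells, measured 5.27, 4.87, 4.69, 5.88 and 5.28 in MIX and 5.22, 5.15, 5.02, 4.99 and 5.35 in ISe. Its lowest and highest arrays were both in MIX, and its log2 difference was 0.05 ± 0.19 (SE).

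Of the atypical receptors, ACKR3 lay above the array median on all 10 arrays and the other 3 under it on all 10. ACKR1, which carries chemokines across venous endothelium, measured 4.43, 4.87, 5.21, 4.96 and 4.64 in MIX and 4.82, 4.94, 4.49, 4.45 and 4.39 in ISe, a log2 difference of 0.20 ± 0.15 (SE). MIX 9 and MIX 10 lay above all ISe arrays and the rest overlapped. ACKR2, which degrades inflammatory CC chemokines, was at -0.01 ± 0.14, and ACKR4, which scavenges CCL19 and CCL21, at 0.11 ± 0.10 (log2 difference ± SE). ACKR2 measured 4.84, 5.10, 4.98, 5.22 and 5.43 in MIX and 5.43, 5.06, 4.88, 4.84 and 5.39 in ISe, and ACKR4 3.62, 3.39, 3.34, 3.59 and 3.52 in MIX and 3.62, 3.52, 3.14, 3.33 and 3.28 in ISe. Both genes overlapped between the groups and lay under the array median on all 10 arrays.

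The 18 other genes had log2 differences between -0.25 (CXCL2) and 0.36 (CCR6, a receptor of Th17 and B cells), 8 above 0 and 10 below, with a smallest unadjusted p of 0.188. They are CCL1, CCL11, CCL17, CCL20, CCL22, CCL24, CCL25, CCL26, CCL28, CXCL2, CXCL17, CCR3, CCR4, CCR6, CCR9, CCR10, CXCR5 and CXCR6. CCR6 ranged from 4.49 in ISe 2 to 6.05 in MIX 1 and 6.03 in ISe 7. By mean signal 3 of the 52 genes, CXCL2, CCR3 and ACKR4, lay under the 10th percentile of the tested probesets. PF4 and PPBP, chemokines of platelets whose symbols lie outside the naming rule, had log2 differences of 0.07 ± 0.09 and -0.04 ± 0.06 (SE).

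Downstream of the receptors, 55 of 59 listed signalling genes were measured. Of these 34 had a higher mean in MIX, 0 passed the adjusted threshold, and the median log2 difference was 0.02. At an unadjusted p under 0.05 there were 7 of 55 with the higher mean in MIX and 1 with the lower. Of all tested probesets 2.67% were higher and 2.12% lower in MIX at that threshold. This list too was chosen with earlier results of these data known. ARRB2 and ARRB1, the arrestins that uncouple and internalise chemokine receptors, were at 0.38 ± 0.08 and 0.28 ± 0.10 (log2 difference ± SE). ARRB2 measured 7.10, 7.04, 7.03, 7.18 and 6.86 in MIX and 6.59, 6.69, 6.59, 6.84 and 6.59 in ISe, so every MIX array lay above every ISe array, with an adjusted p of 0.882. The groups were free of overlap in 0.642% of all tested probesets. PTK2B, a focal adhesion kinase relative active in migrating leukocytes, was at 0.45 ± 0.11 and WIPF1, a partner of the Wiskott-Aldrich protein in actin assembly, at 0.27 ± 0.10, both short of the adjusted threshold (adjusted p = 0.926 and 0.941 by limma). Of 20 measured inducers of chemokines such as TNF and the NF-kappa B subunits, 14 had a higher mean in MIX, 0 had an unadjusted p under 0.05, and the median log2 difference was 0.04.

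Of the 52 highest values, MIX 10 held 16 and MIX 8 held 14. The lowest values were spread over all 10 arrays, with 11 in ISe 5 and 8 in MIX 1. Without MIX 10 the count of genes at an unadjusted p under 0.05 was 1 in place of 3, and the median log2 difference was 0.0086 in place of 0.047. The count was 1 without ISe 5 and 2 without MIX 8 or without ISe 7. It was 5 without MIX 9, where CX3CL1 and CX3CR1 joined, without MIX 11, where CX3CL1 and XCL2 joined, and without ISe 3, where XCL2 and CCL21 joined (unadjusted p = 0.0290 and 0.0389 by limma). In the same fits the share of all tested probesets was 4.96% with MIX 10 left out, 4.34% with ISe 5, 5.22% with MIX 8 and 4.08% with ISe 7 left out. It was 5.48% without MIX 9, 5.47% without MIX 11 and 4.54% without ISe 3. CXCL5 passed without MIX 1, XCR1 without ISe 6, and CX3CL1 and XCL1 without ISe 2, XCL1 with the lower mean in MIX. In none of these fits did a chemokine or receptor gene pass the adjusted threshold. Without MIX 1 and MIX 8 together it was 4, with CCL5, CCR8, CXCL5 and CXCL10, against 5.01% of all tested probesets in the same fit.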

How the data were processed

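Corpus luteum RNA of 10 samples (5 MIX, 5 ISe, grouped by title) was measured on 1 array each; array number limits precision. Per the labels' protocols, TRIzol RNA was fragmented and biotin-labelled. The deposited log2 values were processed by the authors; the submitters' processing notes list GCOS 1.2 and Partek without saying what each did. How background was corrected and arrays normalised is not given in the sources used here. Of 26773 probesets, 18457 had 1 symbol, 688 several and 7628 none; the 19145 with a symbol were fitted with limma 3.58.1 (R 4.3.3; lmFit, eBayes), two-sided, with Benjamini-Hochberg adjustment over all of them, and tested on simulated data.

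Correlations used 100000 permutations in Python 3.11.15, or exact ones over 8 arrays. A list mean averages each array's deviation from the gene means, leaving out the 52 genes. Genes given by array were the 8 with the smallest unadjusted p, the 6 with the largest SD and a fixed set by role, and lists name up to 4 genes with the smallest p. Members and lists were chosen with earlier results of these data known. PF4, PPBP, CXCL2, CCR3 and CCR6, the marker relations and the neighbouring pairs were chosen after values were seen. The labels give no batch. Alternatives were other normalisations, filters, variance models, array weights and arrays left out. No sequences are printed.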

Additional observations from a re-analysis of the deposited data

Results flagged for a closer look

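Of 104 groups of 5 arrays (52 genes in MIX and in ISe), 6 held an array whose gap to the next value exceeded 0.71 of the group's range, and chance gives about 1 in 20. XCL2 in MIX 10 was at 6.49, with the other MIX arrays between 5.05 and 5.19. CXCL11 in MIX 10 was at 8.34, with the others between 7.21 and 7.44. CXCL13 in MIX 1 was at 4.81, with the others between 3.94 and 4.02. CCR4 in MIX 11 was at 5.06, with the others between 5.37 and 5.41. CCL26 in ISe 2 was at 4.49, with the other ISe arrays between 4.70 and 4.76. CXCL8 in ISe 5 was at 5.12, with the others at 5.03 or 5.04.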

How the results depend on the processing

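Over 20 alternatives no chemokine or receptor gene passed the adjusted threshold (smallest adjusted p 0.833). For the ligand and receptor pairs 0 passed with group means removed, without MIX 1 and MIX 8, and without the 2 farthest arrays, the alternatives run for them. The count of 3 genes at an unadjusted p under 0.05, each with the higher mean in MIX, was 1 without the dimmest 50% of probesets, where 16 of the 52 genes were tested and CCL5 was called, and 1 without moderation (CCR8). Leaving out 1 array gave 1 to 5, and for genes lower in MIX 0 to 1 (XCL1, without ISe 2). The share of all tested probesets at that threshold was 5.73% without the dimmest 50%, 4.74% without moderation and 4.02% to 5.48% with 1 array left out. CCR8 kept an unadjusted p under 0.05 in all 19 settings run for it, CCR1 in 12 of 19 and CCL5 in 14 of 20. These genes had the smallest p on the same arrays, which every setting refits in whole or in part. The counts are therefore no independent support. Without the dimmest 50% of probesets CCR8 and CCR1 were not tested. Of the 34 genes given by array 17 kept their direction in every setting and 17 did not, of which CXCL10 had an unadjusted p under 0.05 in 1 setting (0.0354, without MIX 1 and MIX 8); the cause was not tested. Under quantile normalisation the log2 difference of CCL19 was 0.0036 and of ACKR2 0.0050. With array weights CXCL3 was at -0.014, ACKR2 at 0.062 and CCL16 at 0.030. Without MIX 1 and MIX 8 together CXCR3 was at 0.072, CCL14 at 0.109, CCL2 at 0.026, ACKR2 at 0.091 and CCL16 at 0.066. With 1 array left out the log2 differences ran from -0.0028 to 0.171 (CXCL16), -0.012 to 0.345 (CXCL10), -0.00054 to 0.056 (CXCL8), -0.185 to 0.0027 (CXCR2), -0.0099 to 0.174 (CCR2), -0.213 to 0.025 (CXCL12), -0.121 to 0.178 (CXCL14), -0.061 to 0.225 (CXCR4), -0.155 to 0.153 (CXCR3), -0.336 to 0.332 (CCL14), -0.260 to 0.186 (CCL2), -0.166 to 0.199 (CXCL9), -0.181 to 0.290 (CXCL3), -0.090 to 0.150 (ACKR3), -0.069 to 0.056 (CCL19), -0.086 to 0.072 (ACKR2) and -0.109 to 0.080 (CCL16). No paired analysis was possible because the groups share no replicate numbers. The signal limits 33 of the 52 genes, whose mean lay under the lowest array median.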

Other observations

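Many chemokine genes lie next to each other in the genome, and 32 of the 52 fell into 10 clusters of neighbours in the current cattle gene table (ARS-UCD2.0), with at most 5 protein-coding genes between neighbours. Among them are CCL4, CCL3, CCL14, CCL16 and CCL5, then CXCL9, CXCL10 and CXCL11, and the receptors CCR2, CCR3, CCR1, XCR1, CXCR6 and CCR9. All pairs within the clusters, and CXCR4 with ACKR3, were set against each other across the 10 arrays, chosen after the values were seen. Of these 45 pairs 34 had r above 0, 7 had an unadjusted permutation p under 0.05 and 0 an adjusted one. The same shares among pairs of the 52 genes that are not neighbours were not computed, so the counts say nothing particular to neighbours. MIX 8 and MIX 10 each lay above the gene mean in 35 of the 52 genes. CXCR4 with ACKR3 had r = 0.84 and rho = 0.83 (permutation p = 0.00161, adjusted 0.0724), and r = 0.67 without MIX 10 and ISe 5. CCL4 with CCL5 had r = 0.82 and rho = 0.66, and r = 0.49 without MIX 8 and MIX 10. CXCL10 with CXCL11 had r = 0.77 and rho = 0.78, and r = 0.47 without MIX 10 and ISe 6. CXCL9 with CXCL10 had r = 0.66 and rho = 0.55, and r = 0.46 without MIX 8 and MIX 10. CCL3 with CCL5 had r = 0.65 and rho = 0.70, and r = 0.76 without MIX 8 and MIX 10. CXCL5 with CXCL8 and CCR9 with CXCR6 had r of 0.84 and 0.81 but rho of 0.21 and 0.28, and r of -0.01 and -0.30 without 2 arrays each. XCL1 and XCL2, which fell into the same cluster, had r = -0.30.

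Across the arrays XCL1 and the mean of the 20 markers of T and NK cells, which are known to make it, had r = -0.26 and rho = -0.22 (permutation p = 0.464 and 0.537, adjusted over the 16 relations 0.531 and 0.661).

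Identical deposited values on 3 or more arrays occurred in 8 of the 52 genes (15.4%) and in 20.6% of all tested probesets. CXCL8 had the same value on 5 arrays, and CXCR5, CCL11 and CCL22 on 4.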
